A study of Mus musculus with 8 samples.

Results

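The insulin-like growth factor (IGF) axis genes described here are the growth factor gene Igf1, the receptor genes Igf1r and Insr, the receptor substrate genes Irs1 and Irs2, and the binding protein genes Igfbp2, Igfbp3, Igfbp4, Igfbp5 and Igfbp6. They were taken by symbol from the raw count matrix, where these 10 genes are 10 of 42391 gene entries. RNA was sequenced from 8 samples, with 4 groups of 2 replicates that came from independent experiments. C2C12 cells, a wild-type mouse myoblast line, were lysed 60 h after transfection and at 12 h of differentiation. They received 50 nM siRNA, which stood at 100 nM during the initial 5 h. Wild-type primary myoblasts (pMb), cultured from the hindlimbs of 5-week-old mice, were lysed 48 h after transfection while proliferating in a serum-rich medium with added FGF. In both cell types the siRNA given to controls was non-targeting, and the Septin9-deficient samples received the one against Septin9. Each sample is thus a transfected culture, and no untransfected cells were analysed here.

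IGF1 is secreted by muscle cells among others and binds the IGF1 receptor, a tyrosine kinase closely related to the insulin receptor. The activated receptors phosphorylate the docking proteins IRS1 and IRS2, which recruit PI3 kinase and so switch on Akt and mTOR, promote growth and keep FoxO transcription factors out of the nucleus. IGF binding proteins hold IGFs outside the cell and most often limit their access to the receptor, although some can also potentiate IGF action. In cultured myoblasts IGF signalling is known to drive both proliferation and differentiation, and Igfbp5 is known as a binding protein of differentiating C2C12 cells.

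The samples held between 20898611 and 27223414 counted reads. Septin9 fell by 1.36 on the log2 scale in C2C12 cells and by 1.21 in primary myoblasts. Its pairs 1 and 2 had log2 ratios of -1.48 and -1.23 in C2C12 cells and of -0.85 and -1.57 in primary myoblasts. Every Septin9-deficient sample lay below every control sample of its cell type. Of 8 myoblast markers, Myod1 and Des were present in all samples, at 65.2 CPM or more and 437 CPM or more. Myf5 lay between 13.3 and 47.9 CPM. Myf6 lay at or below 0.137 CPM in C2C12 cells and between 4.76 and 36.8 CPM in primary myoblasts. The cultures of the 2 experiments were not alike. Summed over 10 fibroblast markers, the level was 332 and 364 CPM in the 2 primary myoblast samples of replicate 1 and 884 and 1045 CPM in those of replicate 2. The sum was higher in the C2C12 line, between 2496 and 3201 CPM, most of it Col3a1 at 2256 to 2937 CPM. Col1a1, a fibroblast collagen, stood at 4.84 and 6.83 CPM in replicate 1 of the primary myoblasts and at 249 and 378 CPM in their replicate 2. In C2C12 cells Col1a1 lay between 97.6 and 127 CPM. The summed level of 18 muscle differentiation genes was lower in replicate 2 of the primary myoblasts, with 6186 CPM in the control sample against 21150 CPM in replicate 1. In C2C12 cells it was higher in replicate 2, with 532 against 268 CPM in the control samples. Summed markers of macrophages, endothelial cells, Schwann cells and adipocytes stayed at or below 5.30 CPM in all 8 samples. Those of pericytes and smooth muscle, 6 genes, summed to between 1846 and 3230 CPM in C2C12 cells and between 847 and 1197 CPM in primary myoblasts, most of it Acta2, the smooth muscle actin.

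Levels of the genes were first compared in the control samples, per kilobase of annotated exon so that genes of unequal length could be set side by side. In control C2C12 cells the binding protein genes Igfbp5, Igfbp6 and Igfbp2 stood highest. Igfbp5 reached 208 ± 121 CPM per kb (SD, n = 2), Igfbp6 137 ± 9.07 and Igfbp2 109 ± 12.5. The samples of Igfbp5 and Igfbp6 overlapped, whereas those of Igfbp6 and Igfbp2 did not. Irs1 followed at 25.8 ± 7.55 CPM per kb and did not overlap with its neighbours. The remaining genes lay between 2.67 CPM per kb for Igf1 and 4.62 CPM per kb for Irs2, with Igfbp3, Igf1r, Insr and Igfbp4 in between, and each overlapped with the next in order.

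In control primary myoblasts the order was different. Igfbp2 (66.3 ± 59.8 CPM per kb, SD, n = 2), Igfbp3 (45.2 ± 25.3) and Igfbp5 (34.6 ± 0.965) had the highest means and overlapped. Igfbp4 and Igfbp6 followed at 18.4 and 16.6 CPM per kb, also overlapping, and then Irs1 at 14.5 CPM per kb. Igfbp4, at 12.3 and 24.4 CPM per kb in replicates 1 and 2, also overlapped with Irs1 (14.8 and 14.3) and with Igfbp2 (24.0 and 109). Igf1r stood at 5.08, Irs2 at 2.68, Insr at 2.33 and Igf1 at 0.441 CPM per kb, and among these neighbours no samples overlapped. In both cell types Igf1 was thus the lowest of the 10 genes by its mean, and Irs1 stood above Irs2 in every control sample.

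**Figure D1:**
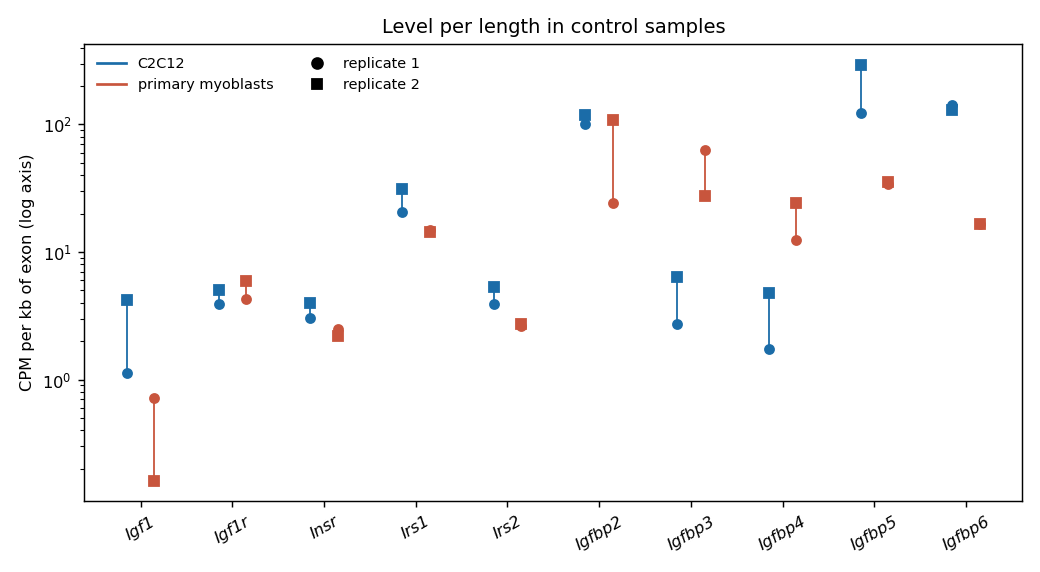
Level of each gene in the control samples, in CPM per kilobase of exon on a log axis, with C2C12 cells in blue, primary myoblasts in red, circles for replicate 1 and squares for replicate 2, joined by a line. Igfbp5 and Igfbp6 sit higher in C2C12 cells, Igfbp3 and Igfbp4 higher in primary myoblasts, and Igf1 is lowest by its mean in both.

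Control primary myoblasts were compared directly with control C2C12 cells to ask how the 2 culture models differ in this axis. Of the 10 genes, 5 passed an adjusted p under 0.05 together with a change of at least 1.5-fold in either direction, the thresholds used for a differentially expressed gene (DEG) throughout, against 37.6% of all 17918 genes tested. Cell type, medium, differentiation and time after transfection cannot be told apart in this comparison. Although the C2C12 cells were the ones at 12 h of differentiation, 17 of 18 muscle differentiation genes were DEGs higher in primary myoblasts. The median log2 difference of these 18 genes was 6.30. Igfbp3, which encodes the main IGF carrier of the circulation, was at 8.47 and 20.1 CPM in control C2C12 cells and at 197 and 85.7 CPM in control primary myoblasts, in replicates 1 and 2. It was higher in primary myoblasts by 3.31 on the log2 scale (SE 0.69, edgeR quasi-likelihood adjusted p = 0.0103), and by 4.06 without replicate 2 of the C2C12 controls or 2.59 without replicate 1 of the primary myoblast controls. Igfbp4, whose protein is regarded as an inhibitor of IGF action, was at 7.69 and 21.2 CPM against 54.5 and 108 CPM. Its log2 difference was 2.48 (SE 0.61, edgeR adjusted p = 0.0187), with an adjusted p of 0.0687 without replicate 1 of the C2C12 controls and 0.0601 without replicate 2 of the primary myoblast controls. Without replicate 2 of the C2C12 controls the difference of Igfbp4 was 3.39. For both genes the groups did not overlap.

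Igfbp5 and Igfbp6 ran the other way. Igfbp5 was at 734 and 1762 CPM in control C2C12 cells and at 204 and 212 CPM in control primary myoblasts, a log2 difference of -2.59 (SE 0.51, edgeR adjusted p = 0.00842), or -1.82 without replicate 2 of the C2C12 controls. Igfbp6, whose protein prefers IGF2 over IGF1, was at 159 and 145 CPM against 18.5 and 18.3 CPM. Its log2 difference was -3.04 (SE 0.13, edgeR adjusted p = 9.02e-05), and its replicates lay close together in each cell type. Irs1 was at 187 and 285 CPM against 135 and 131 CPM, a log2 difference of -0.83 (SE 0.24, edgeR adjusted p = 0.0321). Leaving out replicate 2 of the C2C12 controls moved the difference of Irs1 to -0.50 with an adjusted p of 0.167, and without replicate 1 or 2 of the primary myoblast controls the adjusted p was 0.0931 or 0.101.

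The other genes did not pass. Igf1 was at 11.2 and 41.7 CPM in control C2C12 cells and at 7.13 and 1.60 CPM in control primary myoblasts, with no overlap but with a wide spread within each cell type (log2 difference -2.61, SE 1.00, edgeR adjusted p = 0.0761, and 0.00782 by DESeq2). Insr had a log2 difference of -0.58 (adjusted p = 0.0522), Irs2 of -0.79 (0.0679), Igfbp2 of -0.71 (0.489) and Igf1r of 0.18 (0.641), all by edgeR. Single libraries weighed on these values. Igf1 was at -1.37 without replicate 2 of the C2C12 controls, -3.27 without their replicate 1, -4.04 without replicate 1 of the primary myoblast controls and -1.87 without their replicate 2. Igfbp2 was at -0.0034 without replicate 1 of the primary myoblast controls and at -2.17 without their replicate 2, and Insr reached an adjusted p of 0.0454 without replicate 1 of the C2C12 controls.

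Together the 5 binding protein genes summed to 370 and 553 CPM per kb in control C2C12 cells and to 150 and 212 CPM per kb in control primary myoblasts. Igfbp5 and Igfbp6 made up 33.0% and 38.7% of this sum in replicate 1 of the C2C12 controls and 53.1% and 23.6% in replicate 2. The leading gene thus differed between experiments, and it did so in primary myoblasts too. Igfbp3 held 42.1% of the sum in control replicate 1 and 12.9% in control replicate 2, and Igfbp2 held 16.0% and 51.2%. The Septin9-deficient samples of the same experiments showed the same leading genes, with Igfbp3 at 40.2% in replicate 1 and Igfbp2 at 46.2% in replicate 2. In C2C12 cells, after knockdown, Igfbp6 led with 36.4% in replicate 1, and Igfbp5 held 46.3% in replicate 2.

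After Septin9 knockdown, Igfbp4 was the gene of the set that passed the thresholds of an upregulated DEG in both cell types. In C2C12 cells 1 of the 10 genes was an upregulated DEG, namely Igfbp4, where 0.828% of 15814 genes tested were upregulated DEGs. In primary myoblasts there were 2, Igfbp4 and Igf1, where 2.87% of 17117 genes tested were upregulated DEGs. No gene of the set was a downregulated DEG, and 0.74% of all genes tested in C2C12 cells and 0.298% in primary myoblasts were. By the adjusted p alone, 4 of the 10 genes passed in C2C12 cells, where 6.75% of all genes tested did, and 3 of 10 in primary myoblasts, where 4.99% did. The set had a median log2 fold change of -0.05 in the C2C12 comparison, where all genes tested had -8e-04, and of 0.11 in the primary myoblast comparison, where all had 0.01. In bulk RNA a change in the make-up of a culture and a change in RNA per cell cannot be told apart.

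**Figure D2:**
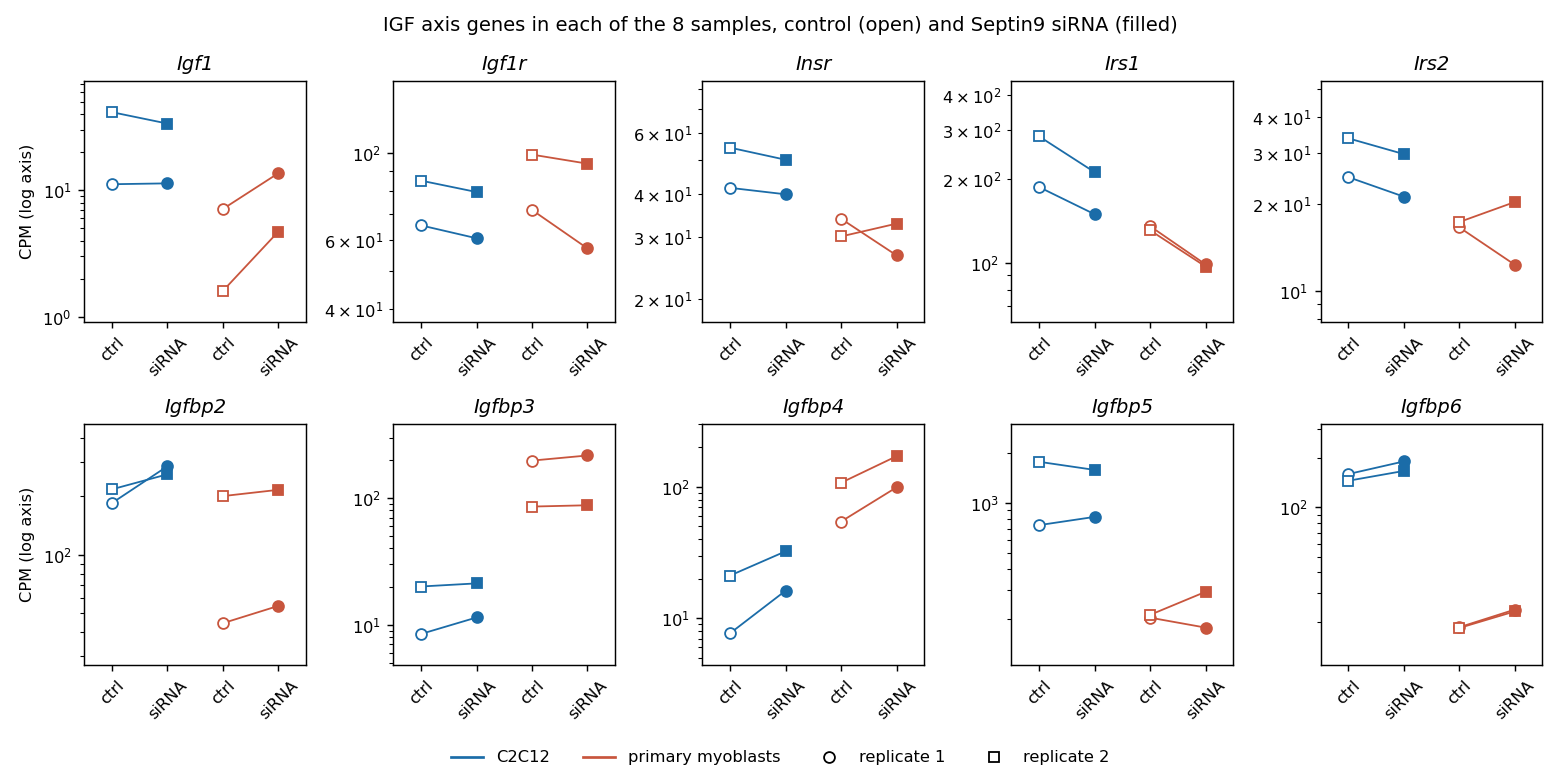
CPM of each gene in the 8 samples on log axes that differ between panels, with open symbols for control and filled symbols for Septin9 siRNA, circles for replicate 1, squares for replicate 2, and lines joining the pair of an experiment. The lines of Igfbp4 climb in all 4 pairs and those of Irs1 descend in all 4, whereas those of Igf1 climb in both primary myoblast pairs and have log2 ratios of 0.02 and -0.30 in C2C12 cells. Lines of Igfbp2, Igfbp3 and Igfbp6 also climb in all 4 pairs, and those of Igf1r descend in all 4.

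Igfbp4 (chr11:99040005-99052655, plus strand, GRCm38.p6) went from 7.69 to 16.2 CPM in replicate 1 of the C2C12 cells and from 21.2 to 32.3 CPM in replicate 2. In primary myoblasts it went from 54.5 to 99.3 CPM in replicate 1 and from 108 to 171 CPM in replicate 2. Within each experiment the Septin9-deficient sample was the higher, yet across experiments the groups overlapped, since the control sample of replicate 2 lay above the Septin9-deficient sample of replicate 1 in both cell types. The fold changes were 1.73 in C2C12 cells (log2 0.79, SE 0.11, edgeR adjusted p = 0.000111) and 1.70 in primary myoblasts (log2 0.77, SE 0.11, edgeR adjusted p = 0.000539). The C2C12 pairs had log2 ratios of 1.07 and 0.61, and the primary myoblast pairs of 0.86 and 0.67. Without replicate 1, Igfbp4 in C2C12 cells kept a log2 fold change of 0.61 with an edgeR adjusted p of 0.0932, in a fit that takes the spread from the primary myoblasts.

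Igf1 (chr10:87858265-87937047, plus strand) changed in primary myoblasts, where it was scarce. It went from 7.13 to 13.7 CPM in replicate 1 and from 1.60 to 4.72 CPM in replicate 2, so that both Septin9-deficient samples lay above the control of their own experiment but that of replicate 2 stayed below the control of replicate 1. The fold change was 2.25 (log2 1.17, SE 0.21, edgeR adjusted p = 0.00250), with log2 ratios of 0.93 and 1.51. In C2C12 cells Igf1 was at 11.2 and 11.4 CPM in control and Septin9-deficient cells of replicate 1 and at 41.7 and 33.9 CPM in replicate 2 (log2 fold change -0.18, SE 0.09, edgeR adjusted p = 0.313). The muscle differentiation genes moved in the same samples, with 15 of 18 upregulated DEGs in primary myoblasts and 8 of 17 tested in C2C12 cells, and their part in the change of Igf1 was not tested. A non-coding gene on the opposite strand, Igf1os, overlaps Igf1 without shared exon bases and had no reads in any sample.

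The difference between the cell types was tested by the interaction of cell type and siRNA in all 8 samples. For Igf1 the log2 fold change was higher in primary myoblasts by 1.31 (SE 0.22), with an unadjusted p of 0.000156 and an adjusted p of 0.174 by edgeR, so the difference did not pass. Across the alternatives run its adjusted p ranged from 1.33e-07 without a filter on low counts to 1 without the replicate block. For the other 9 genes the edgeR adjusted p lay at 0.719 or above, and for Igfbp4 the difference was -0.04 (SE 0.16). No gene at all passed this test in edgeR, 0% of 17918, although 1469 had an unadjusted p under 0.05, and DESeq2 called 21.

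Among the receptors, neither Igf1r nor Insr passed. Igf1r, the receptor for IGF1 and IGF2, was at 65.3 and 60.5 CPM in control and Septin9-deficient C2C12 cells of replicate 1 and at 85.0 and 79.5 CPM in replicate 2, and in primary myoblasts at 71.5 and 57.0 CPM and at 99.0 and 93.9 CPM. Each of the 4 pairs had the lower value after knockdown, by log2 ratios of -0.11, -0.10, -0.33 and -0.08, with edgeR adjusted p of 0.446 for the C2C12 and 0.415 for the primary myoblast comparison. Insr, the insulin receptor, lay between 26.6 and 54.3 CPM in all samples, with log2 fold changes of -0.10 and -0.11. Its pairs differed in sign in primary myoblasts, with log2 ratios of -0.35 and 0.12.

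Irs1, the docking protein gene (chr1:82233105-82291439, minus strand), was lower after knockdown in all 4 pairs. It went from 187 to 149 CPM and from 285 to 212 CPM in C2C12 cells, and from 135 to 98.6 CPM and from 131 to 96.8 CPM in primary myoblasts. In primary myoblasts the groups did not overlap and the replicates were close to each other, while in C2C12 cells the control of replicate 1 lay below the Septin9-deficient sample of replicate 2. The level was 76.7% of control in C2C12 cells (log2 fold change -0.38, SE 0.07, edgeR adjusted p = 0.00109) and 73.6% in primary myoblasts (-0.44, SE 0.11, edgeR adjusted p = 0.0230), which passes the adjusted p but not the fold threshold of a DEG. In C2C12 cells the adjusted p was 0.642 or 0.697 without replicate 1 or 2, and in primary myoblasts it was 0.0728 with RLE scaling, 0.0605 with library size scaling and 0.143 with DESeq2 and the block. Of the exon bases of Irs1, 2822 are shared with Gm9747, a gene on the opposite strand, and without a stated strand setting of the counting their reads cannot be told apart. Irs2, the second docking protein gene, was at 24.7 and 21.2 CPM and at 33.7 and 29.7 CPM in the C2C12 pairs, with a log2 fold change of -0.21 (edgeR adjusted p = 0.168). In primary myoblasts its pairs went opposite ways, from 16.6 to 12.3 CPM and from 17.3 to 20.3 CPM (log2 fold change -0.08, edgeR adjusted p = 0.859). Irs2 shares 162 exon bases with the opposite-strand gene 9530052E02Rik.

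Igfbp4 and Irs1 passed the edgeR adjusted p in both cell types, the former up and the latter down. Igfbp2, Igfbp3 and Igfbp6 also rose and Igf1r also fell in both pairs of each cell type, but none passed in both cell types. For Igfbp4 and Irs1 the 250 bases before the annotated RefSeq start are shown. They are given 5′ to 3′ on the strand of the gene, on GRCm38.p6, with every CANNTG (E-box, the core letters read by myogenic and other basic helix-loop-helix factors) in capitals. The window of Igfbp4 is chr11:99040994-99041243, which lies inside the gene's annotated span, and that of Irs1 is chr1:82291440-82291689.
Igfbp4: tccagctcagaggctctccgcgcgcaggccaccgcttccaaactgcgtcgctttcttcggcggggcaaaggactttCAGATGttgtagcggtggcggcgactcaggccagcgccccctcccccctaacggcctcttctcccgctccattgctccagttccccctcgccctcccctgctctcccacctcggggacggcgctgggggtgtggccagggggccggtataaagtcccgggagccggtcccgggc
Irs1: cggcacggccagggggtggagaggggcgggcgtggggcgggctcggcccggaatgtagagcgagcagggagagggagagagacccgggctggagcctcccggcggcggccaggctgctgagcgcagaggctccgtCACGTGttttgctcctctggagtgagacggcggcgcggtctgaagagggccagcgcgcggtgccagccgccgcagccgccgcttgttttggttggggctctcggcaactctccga
The E-box of Igfbp4 reads CAGATG and begins 174 bases before the start, and that of Irs1 reads CACGTG and begins 115 bases before it. A window was given for 9 of the 10 genes, all but Insr, and an E-box occurred in each of them except that of Igf1r, as it does in 66.2% of all 32851 windows of this length. CACGTG, singled out after the windows were read, stood in those of Irs1, Irs2 and Igfbp2 and in 6.02% of all windows. CAGCTG was in the window of Igf1 and in 13.0% of all windows. The windows of Igf1 and Igfbp3 and the further window of Igfbp2 also lie inside the annotated spans of their genes. All 250 bases of the Igf1 window are annotated as exon. The letters GTAAACA, the core of FoxO sites, were in no window of these genes and in 3.17% of all windows. All of these motifs were searched on both strands. The E-box letters read the same on either strand, and both hexamers without an N are cases of the general E-box.

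The other binding protein genes changed less. Igfbp2 went from 185 to 286 CPM and from 217 to 260 CPM in C2C12 cells, where both Septin9-deficient samples lay above both controls (log2 fold change 0.44, SE 0.08, edgeR adjusted p = 0.00124), again below the fold threshold. Without replicate 1 or 2 its log2 fold change was 0.26 or 0.63, with an adjusted p of 1 or 0.0584. In primary myoblasts it went from 44.4 to 54.5 CPM and from 201 to 216 CPM (log2 fold change 0.20, edgeR adjusted p = 0.395). Igfbp6 lay at similar levels in both experiments. It went from 159 to 190 CPM and from 145 to 166 CPM in C2C12 cells (log2 fold change 0.22, SE 0.07, edgeR adjusted p = 0.0473) and from 18.5 to 23.7 CPM and from 18.3 to 23.1 CPM in primary myoblasts (0.35, SE 0.12, edgeR adjusted p = 0.125). In both cell types the Septin9-deficient samples of Igfbp6 lay above both controls, with pair ratios of 0.26 and 0.20 and of 0.36 and 0.33 on the log2 scale. The adjusted p of Igfbp6 in C2C12 cells was 0.0761 without a filter on low counts and 0.340 with DESeq2 and the block, and 1 or 0.842 without replicate 1 or 2.

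Igfbp3 was at 8.47 and 11.4 CPM and at 20.1 and 21.2 CPM in the C2C12 pairs, and at 197 and 217 CPM and at 85.7 and 87.7 CPM in the primary myoblast pairs (log2 fold changes 0.22 and 0.09, edgeR adjusted p = 0.304 and 0.769). Igfbp5, which had the highest mean per length in C2C12 cells although Igfbp6 stood above it in replicate 1, had pairs of opposite sign in both cell types. It went from 734 to 822 CPM and from 1762 to 1575 CPM in C2C12 cells, and from 204 to 178 CPM and from 212 to 292 CPM in primary myoblasts (log2 fold changes -0.01 and 0.14, edgeR adjusted p = 0.986 and 0.717). Summed over the 5 binding protein genes, the level per length went from 370 to 470 and from 553 to 567 CPM per kb in C2C12 cells, and from 150.0 to 172 and from 212 to 253 CPM per kb in primary myoblasts.

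**Figure D3:**
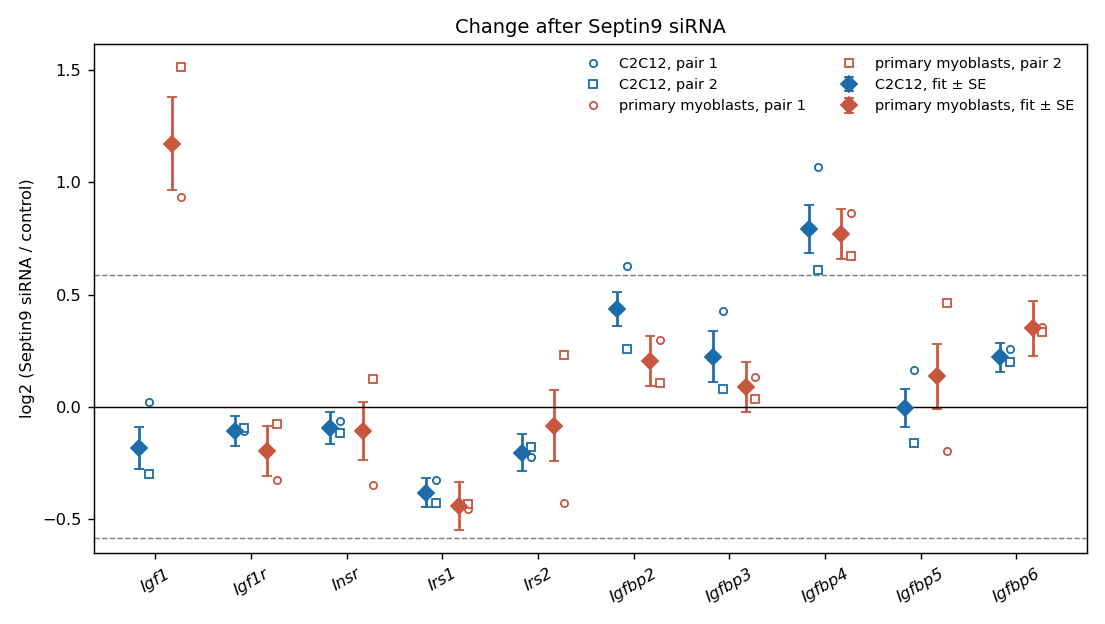
Log2 fold change after Septin9 siRNA for each gene, with diamonds and bars for the fitted value ± SE, circles and squares for the ratios of replicate pairs 1 and 2, and dashed lines at a 1.5-fold change in either direction. Igfbp4 lies above the threshold in both cell types and Igf1 in primary myoblasts, while Irs1 lies near -0.4 in both.

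For several of the genes the 2 experiments differed by more than control and knockdown did. In C2C12 cells 4 of the 10 genes passed the DEG thresholds between replicates 1 and 2, against 11.3% of all genes tested, and all 4 were higher in replicate 2. These were Igf1 (log2 difference 1.71), Igfbp4 (1.17), Igfbp5 (1.07) and Igfbp3 (1.03). In primary myoblasts 5 of 10 passed, against 15.9% of all genes tested. Igfbp2 (2.10), Igfbp4 (0.91) and Igf1r (0.62) were higher in replicate 2, and Igf1 (-1.77) and Igfbp3 (-1.23) were lower. Igf1 and Igfbp3 thus went up from replicate 1 to 2 in the C2C12 samples and down in the primary myoblast samples, whereas Igfbp4 was higher in replicate 2 of both.

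These differences ran beside those of the cultures. The C2C12 samples of replicate 2 had more of the muscle differentiation genes and less of 18 cell cycle genes, whose summed level was 2790 and 2325 CPM in control and Septin9-deficient cells of replicate 1 and 1364 and 1166 CPM in those of replicate 2. In the primary myoblasts, where the fibroblast markers were higher in replicate 2, 7 of 7 tested fibroblast markers passed the DEG thresholds between replicates, with a median log2 difference of 3.96, and 18 of 18 muscle differentiation genes passed in the opposite direction, with a median of -1.26. Of 5 tested pericyte and smooth muscle markers 4 were higher in replicate 2 of the primary myoblasts, with a list median of 2.16, and Pdgfrb stood at 2.46 and 3.31 CPM in replicate 1 and at 43.1 and 65.0 CPM in replicate 2. Pdgfra, a marker of fibro-adipogenic cells, stood at 0.896 and 1.03 CPM in replicate 1 and at 31.7 and 32.1 CPM in replicate 2. Their part in the differences of Igfbp2, Igfbp3 and Igf1 between the experiments was not tested. After Septin9 siRNA, 1 of 7 tested fibroblast markers was an upregulated DEG in primary myoblasts and none of 6 was a DEG in C2C12 cells. Of 4 tested pericyte and smooth muscle markers in C2C12 cells 1 was a downregulated DEG and 2 were lower by the adjusted p, with a list median of -0.39, and Acta2 went from 2341 to 1587 CPM and from 2881 to 1925 CPM. None of 5 was a DEG in primary myoblasts. Of 8 tested myoblast markers in primary myoblasts 1 was a downregulated DEG. By the adjusted p 2 of these were lower and 1 was higher. In C2C12 cells none of 7 tested was a DEG, and 4 were higher by the adjusted p. The part of these markers in the changes of Igfbp4 and Irs1 was not tested.

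**Figure D4:**
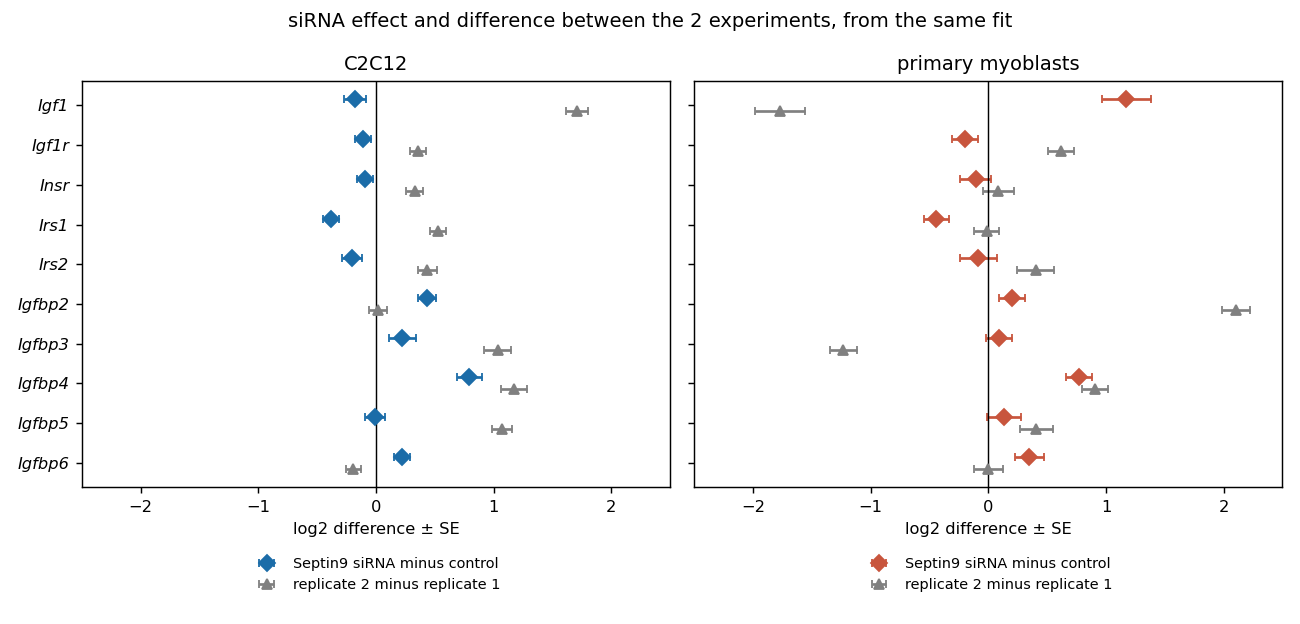
Log2 difference ± SE of each gene between Septin9 siRNA and control (diamonds) and between replicates 2 and 1 (triangles), from the same fit, in C2C12 cells and primary myoblasts. The triangles of Igf1 (1.71 and -1.77) lie further from 0 than its diamonds (-0.18 and 1.17), and those of Irs1 and Igfbp6 in primary myoblasts lie at -0.01 and -0.0018.

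The genes whose levels followed Igf1 and Igfbp4 most closely were sought among 12973 genes, over the 8 samples and after subtracting the mean of each cell type. For Igf1 these were Zbtb18 (Pearson r = 0.993), Ddc (r = 0.993) and Ogn (r = 0.992). For Igfbp4 they were Ccni (r = 0.988), Erlin2 (r = 0.985) and Tmem159 (r = 0.981). The samples share their experiments and siRNA treatment, so these values describe the 8 samples.

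The pathway around these genes was followed in 4 lists of 91 genes. Over all genes tested, 1.57% were DEGs in either direction in C2C12 cells and 3.17% in primary myoblasts. Among 20 genes of the IGF axis outside the set (other ligands, carriers, and enzymes that release IGFs), 11 were tested in C2C12 cells and 2 were upregulated DEGs, and 13 were tested in primary myoblasts with 1 upregulated DEG. Igf2, the other IGF ligand, was an upregulated DEG in both, with log2 fold changes of 1.03 (SE 0.14, edgeR adjusted p = 0.000128) and 0.80 (SE 0.17, edgeR adjusted p = 0.00900). It went from 3.14 to 6.95 CPM and from 9.23 to 18.0 CPM in C2C12 cells, and from 2035 to 2929 CPM and from 934 to 1956 CPM in primary myoblasts. Stc2, which encodes an inhibitor of the protease that cleaves IGFBP4, went from 2.19 to 4.38 CPM and from 2.58 to 4.43 CPM in C2C12 cells (log2 fold change 0.88, edgeR adjusted p = 0.0157). Pappa, the gene of that protease, had 50 reads in the control and 27 in the Septin9-deficient C2C12 sample of replicate 1 and 36 and 14 in those of replicate 2, a log2 fold change of -0.99 (SE 0.32, edgeR adjusted p = 0.0750) that passed the DEG thresholds without a filter or with a minimum of 10 counts. In primary myoblasts the log2 fold change of Stc2 was 0.52 (edgeR adjusted p = 0.0181), below the fold threshold. That of Pappa in primary myoblasts was -0.19 (SE 0.41, edgeR adjusted p = 0.885), with pairs of opposite sign at log2 ratios of -0.79 and 0.29. The list had medians of 0.01 and 0.10 on the log2 scale in C2C12 cells and primary myoblasts.

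Of 24 docking proteins and receptor brakes, 22 were tested in C2C12 cells and 1 was a DEG, and none of 24 was a DEG in primary myoblasts. The DEG was Sh2b2, an adaptor of the insulin receptor, which went from 6.19 to 12.0 CPM and from 8.24 to 12.0 CPM in C2C12 cells (log2 fold change 0.73, edgeR adjusted p = 0.00306). Of 27 genes of PI3 kinase, Akt and mTOR, all tested in both cell types, 1 was a DEG in C2C12 cells and none in primary myoblasts. Pik3cd, a catalytic subunit of PI3 kinase, fell by 1.08 on the log2 scale in C2C12 cells (edgeR adjusted p = 0.00705), from 4.28 to 1.96 CPM and from 3.38 to 1.67 CPM. In primary myoblasts the log2 fold change of Pik3cd was -0.45 (edgeR adjusted p = 0.199). These PI3 kinase, Akt and mTOR genes had medians of -0.02 and 0.07 on the log2 scale in the respective cell types.

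Of 20 FoxO factors and known FoxO targets, none of 18 tested was a DEG in C2C12 cells, and 4 of 19 were upregulated DEGs in primary myoblasts, where 2.87% of all genes were. Foxo6 itself went from 4.30 to 8.96 CPM and from 2.49 to 6.11 CPM (log2 fold change 1.17, edgeR adjusted p = 0.00234). Trim63, a ubiquitin ligase of muscle atrophy, went from 35.2 to 53.7 CPM and from 10.0 to 20.7 CPM (0.81, edgeR adjusted p = 0.00133). Gadd45a, a growth arrest gene, and Bnip3, a mitophagy gene, had log2 fold changes of 0.68 and 0.64 (edgeR adjusted p = 0.00229 and 0.00201). Fbxo32, the other well known atrophy ligase among the targets, was not a DEG in primary myoblasts and had log2 ratios of -0.24 and -0.34 in the pairs. The FoxO list had medians of -0.04 and 0.09 on the log2 scale.

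**Figure D5:**
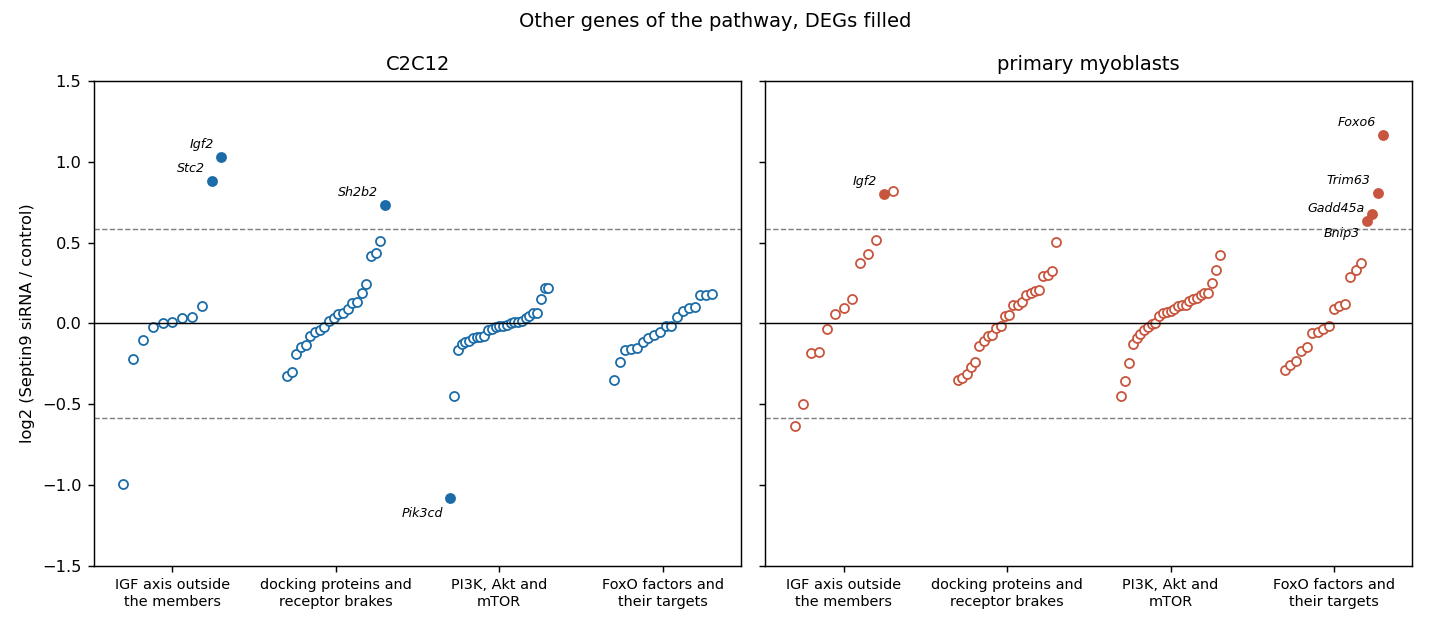
Log2 fold change after Septin9 siRNA of each tested gene of the 4 pathway lists, sorted within its list, with DEGs filled and named and dashed lines at a 1.5-fold change. Most genes lie near 0, and the filled points number 4 for C2C12 cells and 5 for primary myoblasts.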

How the data were processed

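The deposited raw counts of 8 samples, used here, were made by the authors with STAR 2.7.2 on GRCm38.p6 and featureCounts 2.0.1. They also deposited, for each cell type, a normalized signal (ComBat-Seq counts divided by DESeq2 size factors), from which whole counts were recovered in 100% of values (within 0.01). Whether counting used strand is not given in the sources used here. Genes split over 16 broken lines were left out; none is a gene of the set.

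Each cell type was fitted alone in R 4.3.3 with edgeR 4.0.16 (filterByExpr, TMM, quasi-likelihood test, Benjamini-Hochberg adjustment over all genes tested), with the replicate number as a block. The replicate numbers in the labels were taken to mark the independent experiments within a cell type, which the labels do not state. Deviations of same-numbered samples correlated at 0.678 in C2C12 cells and 0.820 in primary myoblasts. Whether a number marks the same experiment in both cell types is not given. DEGs had an adjusted p under 0.05 and a change of at least 1.5-fold, rounded as in the study's methods. Controls were compared in a fit of all 8 samples without the block, and siRNA effects between cell types with replicate within cell type. P-values rest on 2 replicates per group.

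CPM were scaled by TMM over all 8 samples, pair ratios used a prior count of 2, and lengths are exon unions of GENCODE M21. The study's methods name another Gencode release and the gene names match RefSeq, so values per length rest on a different annotation from that of the counting. Coordinates and promoter windows are from RefSeq, GRCm38.p6. The fits were also run on counts simulated from their own fitted model with the trended spread alone. Such counts cannot show how the fits behave with the spread of single genes in these samples. Alternatives were RLE or library size scaling, a minimum of 10 counts in every sample or no filter, DESeq2 1.42.0, no block, all samples in 1 fit, the adjusted p alone and leaving out replicates. Figures were drawn with matplotlib 3.10.9 in Python 3.11.15.

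The genes of the set, the lists and the alternatives were chosen with earlier results of these data known. Named genes are the 10 genes, Septin9, every DEG of the pathway lists, and the 3 genes most like each DEG of the set with a mean of at least 1 CPM. Fbxo32, Pappa, Pappa2, Stc1, the genes of the adjusted p alone and the markers given by level were named after their values were seen.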

Additional observations from a re-analysis of the deposited data

How the results depend on the processing

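Values are log2 differences unless counts are named. Without the replicate block edgeR called 0 genes in either cell type, so 0 of the 10 genes and 0 pathway genes passed after Septin9 siRNA, and Igfbp4 had log2 fold changes of 0.75 in both cell types with an adjusted p of 1. The block widened the control comparison from 6732 to 7330 DEGs. Leaving out each replicate in turn gave 0 to 1 DEG among the 10 genes in C2C12 cells (0 without replicate 1), 0 to 3 pathway DEGs in C2C12 cells (0 without replicate 1) and 4 to 10 in primary myoblasts (10 without replicate 1). It gave 3 to 5 genes in the control comparison (3 without replicate 2 of the primary myoblast controls) and 0 to 2 in the interaction, where Igf1 passed without C2C12 replicate 1, primary myoblast replicate 1 or primary myoblast replicate 2. Without a filter on low counts 8 genes passed in the control comparison and 1, Igf1, in the interaction. By the adjusted p alone 4 genes passed in C2C12 cells, 9 between C2C12 replicates, and 11 and 8 pathway genes in C2C12 cells and primary myoblasts. Pathway DEGs in C2C12 cells were 1 with DESeq2 and the block, 2 with DESeq2 on the batch-corrected counts and 2 with all 8 samples in 1 fit. With all 8 samples in 1 fit the adjusted p of Irs1 and Igfbp2 in C2C12 cells was 0.0807 and 0.108, and that of Igfbp6 was 0.271. The cause was not tested.

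Signs turned for small values. After siRNA in C2C12 cells, Igfbp5 was 0.0165 with library size scaling and 9e-04 with all 8 samples. Leaving out each replicate in turn, Igf1 ranged from -0.30 to 0.0215 and Igfbp5 from -0.16 to 0.16 in C2C12 cells, and Insr from -0.35 to 0.13, Irs2 from -0.43 to 0.24 and Igfbp5 from -0.20 to 0.47 in primary myoblasts. Between controls Igf1r ranged from -0.0584 to 0.40, lowest without replicate 2 of the primary myoblast controls. The interaction ranged from -0.21 to 0.0453 for Igf1r, -0.25 to 0.23 for Insr, -0.22 to 0.45 for Irs2, -0.35 to 0.0021 for Igfbp3, -0.31 to 0.15 for Igfbp4 and -0.19 to 0.48 for Igfbp5. Between primary myoblast replicates, library size scaling gave 0.0177 for Irs1 and 0.0302 for Igfbp6.

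Over all genes, 248 DEGs in C2C12 cells became 99 with DESeq2 and the block, 134 on batch-corrected counts, 83 with all 8 samples, 98 without replicate 1 and 1068 by the adjusted p alone. In primary myoblasts 542 (491 up, 51 down) became 260 with RLE scaling (225 up, 35 down), 206 with library size (165 up, 41 down), 230 with DESeq2 and the block, 331 on batch-corrected counts, 926 without replicate 1 and 358 without replicate 2, and 854 passed the adjusted p alone. The interaction called 255 genes without a filter and between 51 and 844 without 1 replicate pair. With 2 replicates per group, lone samples were assumed to vary like the other groups.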
